A study of Homo sapiens with 12 samples.

Results

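The members are the ChIRP-seq peaks at 7 gene loci of the BCL2 family, BCL2, BCL2L1, MCL1, BCL2A1, BCL2L11, BAX and BAK1. A peak belonged to a locus if its summit lay in the gene or within 50 kb of it on the human genome build hg19, with gene spans rounded to 1 or 10 kb. By this rule, 303 of 764268 peaks in 9 lists were members. ChIRP-seq captures crosslinked chromatin with biotinylated oligonucleotides against an RNA and sequences the DNA that comes along. All libraries came from Jurkat, an established human line of leukaemic T cells grown in serum-containing medium, which stably expressed the long non-coding RNA SLEAR. The title of the series names SLEAR in connection with apoptosis and systemic lupus erythematosus. The odd and even probe sets are aimed at SLEAR, and probes against the bacterial lacZ RNA are the negative control. Each of these 3 sets had 3 libraries; 3 input samples of the series were not analysed here. Since every library carries the expressed SLEAR, the lacZ set is a control for the probes and not for the RNA.

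Proteins of the BCL2 family decide at the outer mitochondrial membrane whether a cell enters apoptosis. The pro-survival members BCL2, BCL-XL (from BCL2L1), MCL1 and BFL1 (from BCL2A1) bind and hold back the pro-death members. BIM, from BCL2L11, belongs to the BH3-only proteins that relay death signals, and BAX and BAK, from BAX and BAK1, form the pores that release cytochrome c. In lymphocytes the balance between them sets how long a cell lives, and BIM is known for its part in the removal of self-reactive T cells.

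No source used here gives the depth of the libraries or the control library of the peak caller, so list length stands in for depth. The lists held 26540 to 91111 peaks for lacZ, 66520 to 117481 for odd and 90519 to 124668 for even probes; lacZ replicate 3 was the shortest. The labels do not say whether the libraries of a set stem from separate cultures, and the p-values reflect spread between libraries that may be technical.

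To allow for list length, the peaks at each locus were set against the number that the density of the same list on the same chromosome gives, called the expected number below. Over the 7 loci together there were 21, 39 and 15 peaks with lacZ, 29, 52 and 47 with odd and 32, 28 and 40 with even probes in replicates 1, 2 and 3. Observed over expected was 1.27 ± 0.187 for lacZ, 1.14 ± 0.108 for odd and 0.848 ± 0.0344 for even lists (SD, n = 3). The 7 loci thus lay near the density of their chromosomes in each set. Each of the 3 even lists was below its expected number, and each odd and lacZ list was above it. The single loci departed from 1 much further, in directions that differed between genes and between sets.

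**Figure D1:**
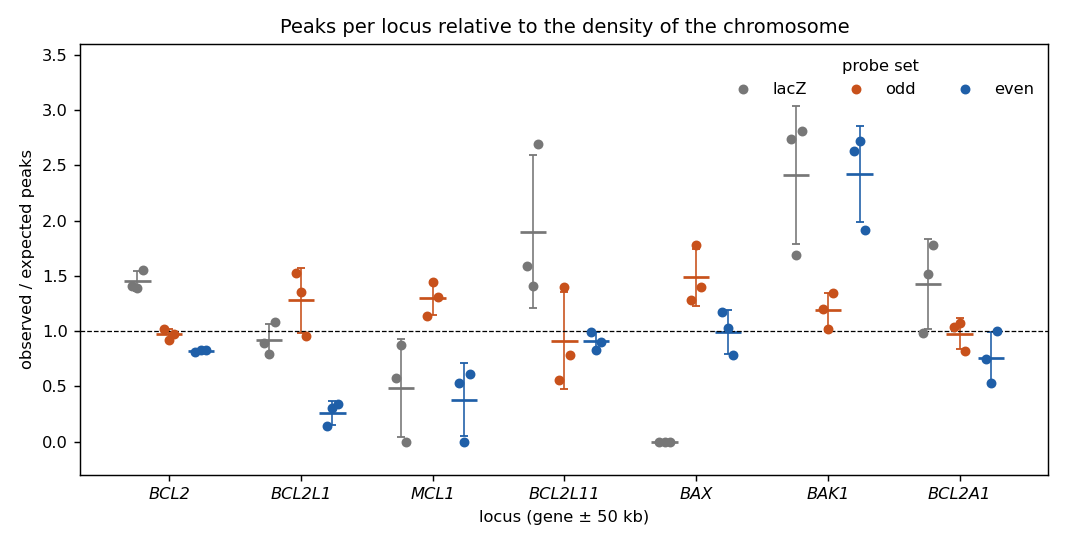
Observed over expected peaks (vertical axis, a ratio) for each locus with 50 kb on either side (horizontal axis); points are the 3 lists of a set, horizontal bars their mean and whiskers the SD, and the dashed line marks the density of the chromosome. BAX has no lacZ peak, BCL2L1 even lists reach at most 0.344, and BAK1 lacZ and even lists average 2.41 and 2.42.

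The windows were compared between sets with limma on log2((peaks + 1)/(expected + 1)), together with every 100 kb tile of chromosomes 1 to 22 and X that held on average at least 1 peak per list. All 7 loci passed that minimum. Differences were called at a Benjamini-Hochberg adjusted p under 0.05 over all 27756 windows. Odd against lacZ, 3 of the 7 loci were called, BAX higher and BCL2L11 and BAK1 lower. Of all windows, 40% were called in that comparison, 20.8% higher and 19.2% lower, so calls were common across the genome. Even against lacZ, 4 loci were called, BAX higher and BCL2, BCL2L1 and BCL2L11 lower, where the background was 39.5% of windows, with 20.7% higher and 18.8% lower. Odd against even, 3 were called, BCL2L1 and MCL1 higher with odd probes and BAK1 lower, against 35.4% of windows, 17.4% higher and 18% lower. These counts are near the background in all 3 comparisons and say nothing particular about the family. The locus windows, from 105 to 300 kb, were longer than the 100 kb tiles of the background. Whether window length changes the share called was not tested. The comparisons with lacZ share their control lists.

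**Figure D2:**
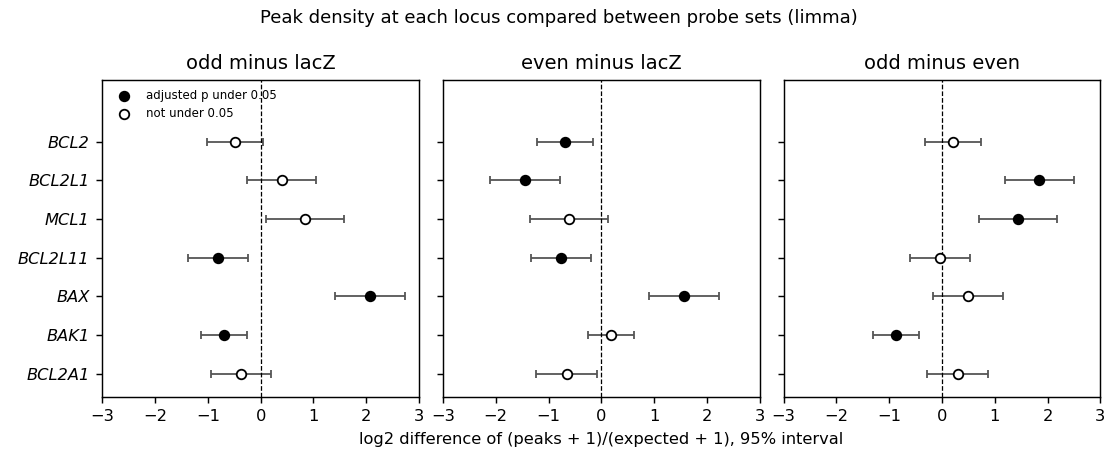
Differences between probe sets at each locus (horizontal axis, log2 difference of (peaks + 1)/(expected + 1); vertical axis, locus), with 95% intervals from limma; filled points have an adjusted p under 0.05. BAX lies at 2.07 for odd and 1.57 for even minus lacZ, and BCL2L1 at 1.84 for odd minus even.

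Members that recurred did so mostly within 1 probe set. Merging overlapping peaks of all lists gave 142 regions at the 7 loci. Of these, 64 (45.1%) had a peak in all 3 lists of a set, and 53 (37.3%) had a peak in 1 list alone. Genome-wide the shares were 41.3% and 36.9% of 357901 regions. Peaks of more than 1 set met in 3 of the 142 regions (2.11%), against 4.86% of all regions. All 3 were odd-even regions, and no region at these loci combined lacZ with odd or even peaks. Of all regions, 2.40% combined odd and even, 1.31% odd and lacZ and 1.41% even and lacZ peaks. Few such regions would thus be expected among 142, and their absence is no result about these loci.

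The recurrent regions of a single set were 25 odd-only, 22 even-only and 14 lacZ-only regions, that is, with peaks in all 3 lists of that set and none of the others. They made up 17.6%, 15.5% and 9.86% of the locus regions. Over all regions the shares were 14.5% odd-only, 17.3% even-only and 5.91% lacZ-only. Their mean folds, which are the authors' values for a peak in its own list, had medians of 15.2, 13.3 and 17.5. The negative control thus gave recurrent peaks at these loci with folds in the range of those of the SLEAR probes. In these 61 regions the summits of the 3 lists lay close together, with a median spread of 47 bases, and within 100 bases in 55 of them.

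**Figure D3:**
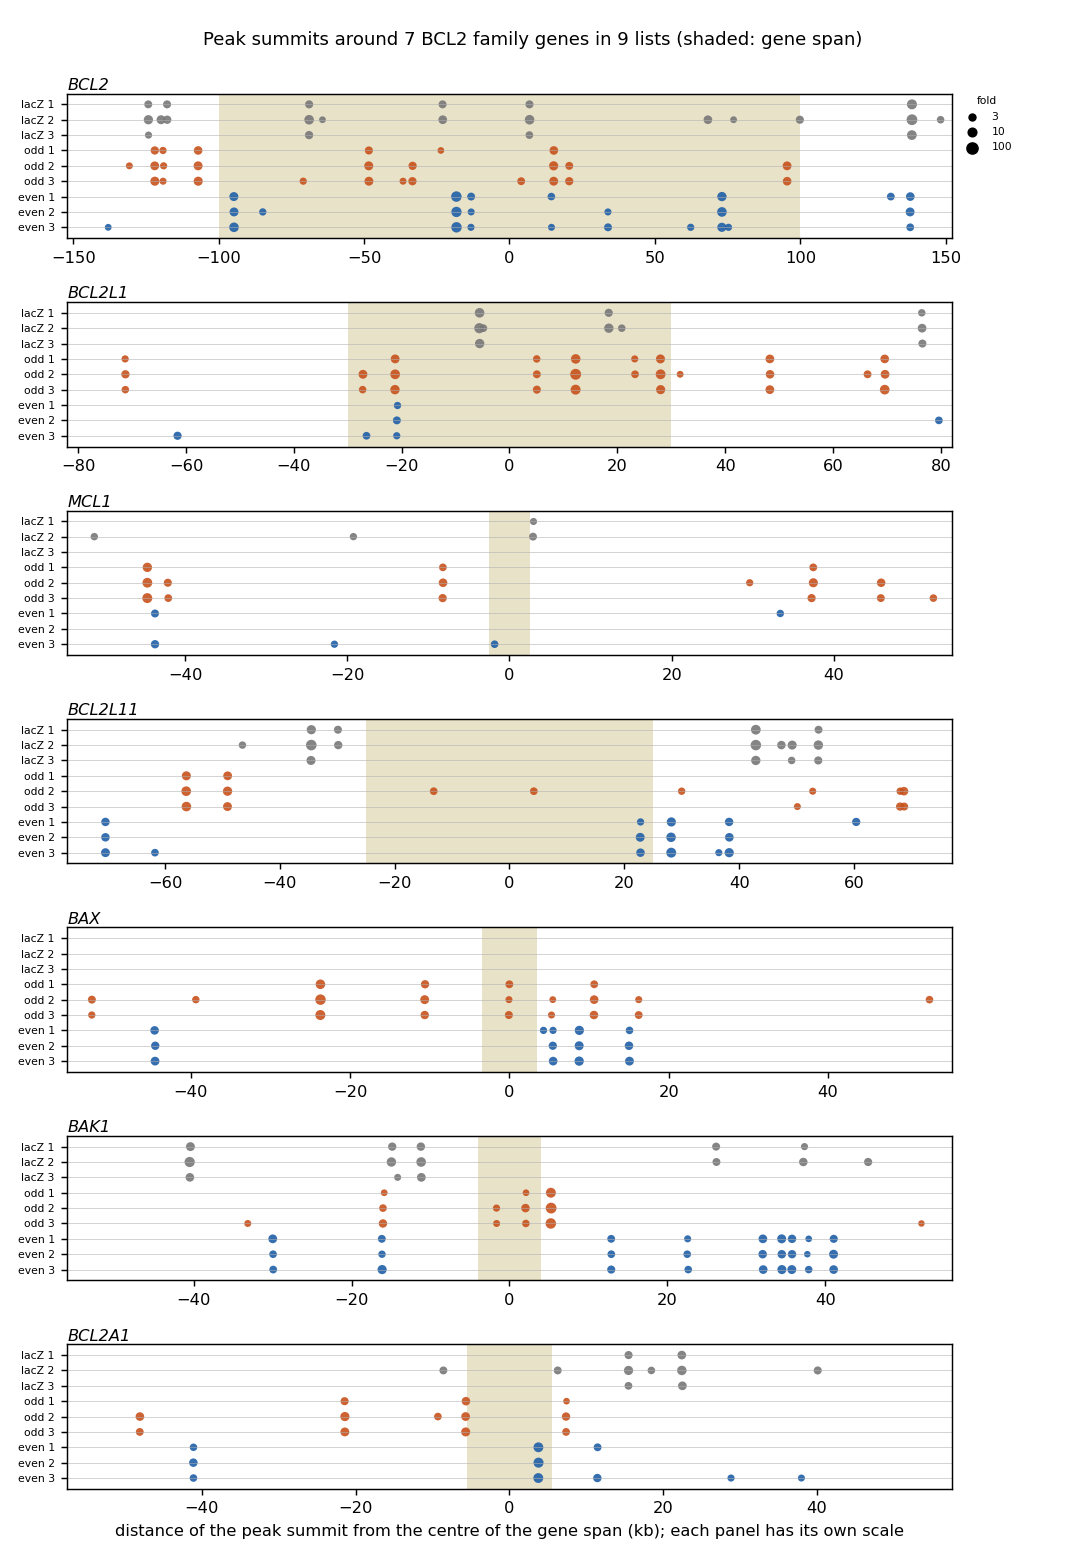
Peak summits around each gene (horizontal axis, distance from the centre of the gene span in kb; rows, the 9 lists; point size, fold enrichment; shading, gene span). Summits line up in columns within the 3 lists of a set, columns of different colours rarely coincide, and the BAX panel has no lacZ point.

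A candidate region was one with a peak in at least 5 of the 6 odd and even lists and in no lacZ list, the pattern that the design takes as contact with SLEAR. The 7 loci held 3, at BCL2L1, BAX and BAK1, which is 2.11% of their regions, where 1.13% of all regions were candidates (4042). All 3 were weak by rank. Ordered by the mean percentile of fold within a list, they stood at 3090, 3936 and 3793 of the 4042.

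At BCL2L1 the candidate lay inside the gene span, on chromosome 20 from 30258446 to 30259182. Its fold was 15.8, 33.3 and 26.0 in the odd lists and 4.91, 7.88 and 4.74 in the even lists, so the odd folds were high and the even folds low in every list. Odd and even summits lay 297 bases apart. At BAX it lay 1.94 kb past the gene, on chromosome 19 from 49466672 to 49467059. Odd replicate 1 had no peak there, odd replicates 2 and 3 had folds of 3.59 and 4.18, and the even lists had 4.72, 9.94 and 14.0. The summits of the sets were 114.5 bases apart. At BAK1 it lay 12.1 kb below the gene span, on chromosome 6 from 33527587 to 33528249. There the odd folds were 3.43, 6.34 and 11.5 and the even folds 7.55, 5.29 and 21.2. The distance between the summits of the sets was 123 bases. A lacZ region, with peaks in all 3 control lists, began 717 bases beyond it. None of the 3 had odd and even summits within 100 bases, which 32.1% of all candidates had, and the median distance over all candidates was 209 bases.

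**Figure D4:**
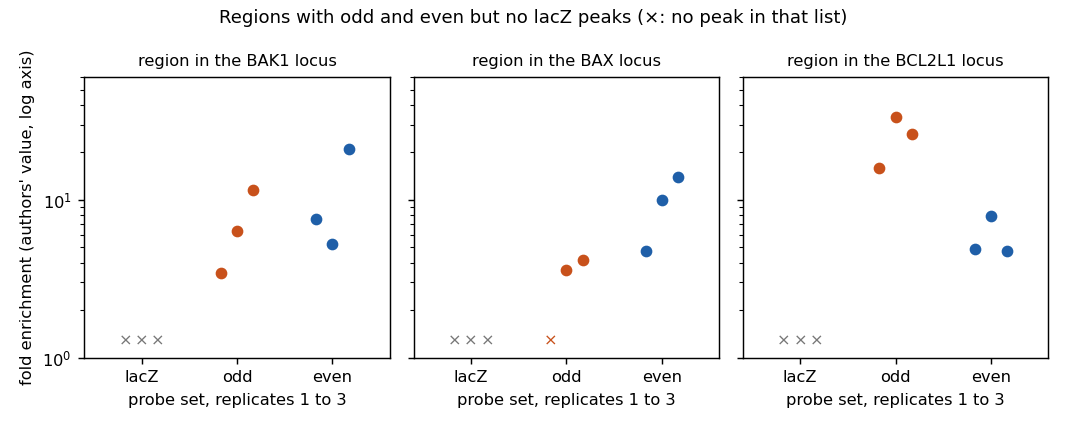
Fold enrichment (vertical axis, log scale, the authors' value in each list) in the 3 candidate regions, by probe set and replicate (horizontal axis); a cross marks a list with no peak. No lacZ list has a peak, and at BCL2L1 the odd folds, from 15.8, lie above the even folds, up to 7.88.

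Among the pro-survival genes, BCL2 was a locus of average probe density. Its window, 300 kb around the span from 60.79 to 60.99 Mb on chromosome 18, held 6, 12 and 4 peaks in the lacZ lists, 6, 9 and 11 in the odd and 7, 7 and 10 in the even lists. Observed over expected was 1.45 ± 0.0897 for lacZ, 0.970 ± 0.0492 for odd and 0.824 ± 0.00762 for even lists (SD, n = 3). The 3 sets did not overlap in this ratio, with lacZ highest. How many windows of the genome show such separation was not counted, and 35.4% to 40% of windows were called between sets. Here and at the loci below, separation of the lists is therefore description only. The even-lacZ difference was −0.69 on the log2 scale (SE 0.26, limma, adjusted p = 0.0323), and that of odd and lacZ −0.48 (SE 0.26, adjusted p = 0.137). The even call was lost without any one of 5 libraries, lacZ replicates 1 and 3 and even replicates 1, 2 and 3 (adjusted p of 0.0527, 0.0501, 0.083, 0.08 and 0.0713). It was also lost with a flank of 100 kb (−0.50, adjusted p = 0.133), in the 50% of each list with the highest fold (−0.23, adjusted p = 0.547) and in lists of equal length (−0.26, adjusted p = 0.699). Odd and even differed by 0.21 (95% interval −0.32 to 0.74).

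By the mean percentile of fold within a list, by which regions are ranked here and below, the strongest recurrent region at BCL2 was found with even probes inside the gene, on chromosome 18 from 60871351 to 60872209. Its fold was 73.3, 60.4 and 67.6 in the even lists, and no odd or lacZ list had a peak there. Another even-only region in the gene, from 60962683 to 60963453, had folds of 23.8, 32.1 and 20.9. Between these in rank was a lacZ region 38.4 kb beyond the span, from 61028267 to 61028773, with folds of 45.6, 97.9 and 35.3. An even-only region, from 61027482 to 61028026, ended 240 bases before it, the smallest gap at the 7 loci between recurrent regions of different sets. In all, BCL2 had 5 odd-only, 5 even-only and 4 lacZ-only regions and no region of 2 sets.

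BCL2L1, which encodes BCL-XL, was poor in even peaks, with odd peaks near or above the expected number. Its window of 160 kb, around 30.25 to 30.31 Mb on chromosome 20, held 8, 11 and 8 odd peaks, 1, 2 and 3 even peaks, and 3, 5 and 2 lacZ peaks. Every odd list was above every even list. The ratio of observed to expected peaks was 1.28 ± 0.295 for odd, 0.262 ± 0.109 for even and 0.924 ± 0.145 for lacZ lists (SD, n = 3). In odd replicate 3 the ratio was 0.956. The odd-even difference was 1.84 (SE 0.32, adjusted p = 4.7e-05), and even lists lay −1.45 from lacZ (SE 0.32, adjusted p = 0.000655). Odd and lacZ differed by 0.40 (adjusted p = 0.339), with an interval of −0.26 to 1.06, and this difference was called in lists of equal length (0.85, adjusted p = 0.00928). Of 373 other windows of that length on the chromosome, 0.536% held fewer even peaks and 22.5% held more odd peaks. This describes the place of the locus and is no test.

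Inside the BCL2L1 gene the strongest odd-only region ran from 30291899 to 30292677, with folds of 29.3, 107 and 43.55 in the odd lists. Another, from 30307699 to 30308351, had 18.1, 37.3 and 20.8. A lacZ region stood between the candidate and these, from 30274117 to 30274813, with folds of 31.2, 52.9 and 25.02. The locus held 6 odd-only, 2 lacZ-only and no even-only regions, so its few even peaks were either in the candidate region or not shared by all even lists.

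MCL1, which encodes a short-lived survival protein, lies in a short span from 150.547 to 150.552 Mb on chromosome 1. Its 105 kb window held 3, 6 and 6 odd peaks, 2, 0 and 3 even peaks and 1, 3 and 0 lacZ peaks. The ratio of observed to expected peaks was 1.30 ± 0.154 for odd, 0.380 ± 0.331 for even and 0.483 ± 0.446 for lacZ lists (SD, n = 3). The odd ratios lay above all even and lacZ ratios. Odd exceeded even by 1.45 (SE 0.36, adjusted p = 0.00223), while odd against lacZ gave 0.84 (adjusted p = 0.0635) and even against lacZ −0.61 (adjusted p = 0.184). Without lacZ replicate 2 or even replicate 2, the odd-lacZ difference was called (1.04, adjusted p = 0.0326, and 0.84, adjusted p = 0.0327). The odd-even difference was 0.92 without even replicate 2 (adjusted p = 0.0479), still called, and 0.087 with a flank of 100 kb (adjusted p = 0.846).

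None of the MCL1 peaks recurred in the gene itself, where even replicate 3 alone had a summit. The 3 recurrent regions were odd-only, from 150504515 to 150505172 with folds of 24.4, 36.7 and 42.3, from 150541068 to 150541588, and from 150586419 to 150587546. The second of these lay 5.71 kb below the gene span and had folds of 6.56, 13.2 and 9.84.

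BCL2A1, whose product BFL1 is made mainly in blood cells, lies from 80.253 to 80.264 Mb on chromosome 15. Its 111 kb window held 2, 6 and 2 lacZ peaks, 3, 5 and 4 odd peaks and 3, 2 and 5 even peaks. The ratio of observed to expected peaks was 1.43 ± 0.406, 0.977 ± 0.139 and 0.760 ± 0.233 for lacZ, odd and even (SD, n = 3), and the ranges of the 3 sets overlapped. With a flank of 50 kb no comparison was called. The even-lacZ difference was −0.66 (adjusted p = 0.0599) with an interval of −1.23 to −0.09. It was called without lacZ replicate 1 (−0.83, adjusted p = 0.036) or even replicate 3 (−0.82, adjusted p = 0.0457), and with a flank of 100 kb (−1.05, adjusted p = 0.00369) or 25 kb (−0.98, adjusted p = 0.00257). The odd-lacZ difference was called in lists of equal length (−1.02, adjusted p = 0.0232), and that of odd and even with a flank of 100 kb (0.87, adjusted p = 0.0159). Even probes gave the strongest region here, inside the gene from 80261920 to 80262613, with folds of 39.6, 47.5 and 40.8. An odd-only region from 80252682 to 80253014 had its summit 0.2 kb below the span, and its folds were 12.2, 14.7 and 18.8.

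BCL2L11 encodes BIM, the only BH3-only protein among the 7. Its 150 kb window, around 111.88 to 111.93 Mb on chromosome 2, held 4, 7 and 4 lacZ peaks, 2, 8 and 5 odd peaks and 5, 4 and 6 even peaks. Each set summed to 15 peaks, although 2 of the 3 lacZ lists were shorter than every odd and even list. Observed over expected was accordingly highest for lacZ, at 1.90 ± 0.695, against 0.915 ± 0.439 for odd and 0.909 ± 0.0822 for even lists (SD, n = 3). All lacZ ratios, from 1.41, lay only just above all odd and even ratios, which reached 1.40. Odd lists differed from lacZ by −0.81 (SE 0.28, adjusted p = 0.0201) and even lists by −0.77 (SE 0.28, adjusted p = 0.028). Without lacZ replicate 3, the shortest list, both calls were lost (−0.63, adjusted p = 0.102, and −0.59, adjusted p = 0.129). The odd call was also lost without odd replicate 1 (adjusted p = 0.123) or 3 (0.061), and the even call without even replicate 2 (0.0786) or 3 (0.0627). With a flank of 100 kb both were lost (−0.21, adjusted p = 0.547, and −0.30, adjusted p = 0.366), and in the 50% of each list with the highest fold the even call was lost (−0.36, adjusted p = 0.247).

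The gene body of BCL2L11 held little. No lacZ summit fell in it, odd replicate 2 had 2 summits, and an even-only region from 111927535 to 111928064 was the single recurrent one. The strongest recurrent regions flanked it. A lacZ region from 111947548 to 111948245 had folds of 35.0, 72.8 and 24.0. The even-only region from 111932368 to 111933502, 3.17 kb above the span, had 21.4, 28.2 and 41.3, and the odd-only region from 111848465 to 111849056 had 18.7, 32.7 and 30.1.

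Of the 2 pore-forming effectors, BAX was the locus without control peaks. Its 107 kb window, around 49.458 to 49.465 Mb on chromosome 19, held no peak in any lacZ list, where 1.92, 3.67 and 1.01 were expected, or 6.60 in all. The odd lists held 4, 9 and 7 peaks and the even lists 5, 4 and 4, at 1.49 ± 0.259 and 0.994 ± 0.198 of the expected number (SD, n = 3). Summed over the 3 lists the ratio was 1.52 with odd and 0.980 with even probes. With 3 peaks over the 3 lacZ lists taken as the limit that a count of 0 allows, these summed ratios were 3.34-fold higher with odd and 2.16-fold higher with even probes. That limit covers counting error of the lacZ lists only. The odd and even counts were taken as exact, so the 2 folds are not lower bounds. The fitted differences from lacZ were 2.07 for odd (SE 0.33, adjusted p = 9.2e-06) and 1.57 for even probes (SE 0.33, adjusted p = 0.000309), and these depend on the pseudocount. Of 523 other windows of that length on the chromosome, 3.25% also had no lacZ peak in any list. With a flank of 100 kb the even-lacZ difference was −0.094 (adjusted p = 0.821), whereas the odd-lacZ difference stayed called. The odd-even difference, 0.50 (adjusted p = 0.244), was called with that flank (2.16, adjusted p = 1.14e-06).

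The strongest region near BAX was odd-only, on chromosome 19 from 49437410 to 49438110, 20.2 kb below the gene, with folds of 29.6, 71.5 and 44.4. Within the gene an odd-only region, 49461365 to 49461706, had folds averaging 6.51 ± 2.12 (SD, n = 3). Even-only regions stood at 49469897 to 49470520, with folds of 22.3, 18.4 and 23.7, and at 49416773 to 49417338, with 12.8, 10.8 and 15.1. In the gene order of the RefSeq table, FTL, which encodes the ferritin light chain, is the next protein-coding gene above BAX.

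BAK1 was rich in even peaks and, relative to list length, in lacZ peaks. Its 108 kb window, around 33.54 to 33.548 Mb on chromosome 6, held 9 peaks in each even list, 3, 4 and 6 in the odd lists and 5, 6 and 3 in the lacZ lists. Observed over expected was 2.42 ± 0.438 for even, 2.41 ± 0.627 for lacZ and 1.19 ± 0.159 for odd lists (SD, n = 3). The odd ratios lay below all others. Odd lists differed from even by −0.88 (SE 0.21, adjusted p = 0.00165) and from lacZ by −0.69 (SE 0.21, adjusted p = 0.00951), and even lists from lacZ by 0.18 (95% interval −0.25 to 0.61). Without lacZ replicate 1 the odd-lacZ call was lost (−0.59, adjusted p = 0.057), as it was with a flank of 25 kb (−0.13, adjusted p = 0.669), and with one of 100 kb the direction turned (0.091, adjusted p = 0.76). The odd-even order turned with a flank of 25 kb (0.27, adjusted p = 0.352) and in lists of equal length (0.66, adjusted p = 0.0651), and with a flank of 100 kb the call was lost (−0.17, adjusted p = 0.575). Of 1555 other windows of that length on the chromosome, 1.09% held more even peaks.

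In each even list 7 of the 9 BAK1 peaks lay above the gene span and 2 below it. Of its 8 even-only regions, 5 lay from 28.1 to 37.1 kb above the gene span, with mean folds from 4.01 to 16.6; the next protein-coding gene on that side in the RefSeq order is ITPR3, which encodes a calcium channel of the endoplasmic reticulum. No even list had a summit in BAK1 itself. Odd probes gave the strongest region, which lay 1.25 kb above the gene span, on chromosome 6 from 33548875 to 33549571, with folds of 41.4, 99.0 and 69.6. The gene is read from the reverse strand, so this is the side of its start. A lacZ region from 33503121 to 33503935, on the other flank, had folds of 16.7, 54.4 and 13.4.

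Just outside the gene span, at the end from which the gene is read, BAK1 had the odd-only region described above. BCL2A1 had one that ran from 80265598 to 80266051, 1.86 kb above the span, with folds of 3.29, 10.9 and 7.10 in the odd lists. It ranked last of the 7 recurrent regions at BCL2A1, whereas the BAK1 region ranked first at its locus. A lacZ peak, in replicate 2 alone, lay nearer to the BCL2A1 span, 0.772 kb above it, with a fold of 7.79. At MCL1 a lacZ region lay 0.39 kb above the gene span, nearer than either odd-only region to its own span. It had folds of 4.41 and 7.65 in lacZ replicates 1 and 2 and no peak in replicate 3. A position just above a span was thus not particular to odd probes. The 2 odd-only regions, and with them the 2 genes, were chosen after their values were seen. Their promoters, the 250 bases before the start in RefSeq (GRCh38.p14), are shown as the sequence at the starts of these 2 genes. BAK1 has chr6:33580277-33580526 and BCL2A1 has chr15:79971197-79971446, both on the reverse strand and 5′ to 3′, with CG pairs in capitals.
BAK1: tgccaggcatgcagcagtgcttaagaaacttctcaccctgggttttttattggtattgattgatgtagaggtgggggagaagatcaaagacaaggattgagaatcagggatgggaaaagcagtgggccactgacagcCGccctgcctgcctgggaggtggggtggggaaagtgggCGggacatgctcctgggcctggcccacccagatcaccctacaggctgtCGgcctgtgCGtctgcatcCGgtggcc
BCL2A1: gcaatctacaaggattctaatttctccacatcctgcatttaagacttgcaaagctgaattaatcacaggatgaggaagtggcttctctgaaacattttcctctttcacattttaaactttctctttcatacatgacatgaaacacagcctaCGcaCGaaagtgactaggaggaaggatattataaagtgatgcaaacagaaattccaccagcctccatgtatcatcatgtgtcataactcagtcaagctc
The peaks are on another build and no hg19 sequence was used, so the 2 stretches were not placed relative to the peaks. They hold 5 and 2 CG pairs, where the median of 35116 promoters is 11, and 34.3% and 14.7% of promoters have fewer. The table had promoters for 6 of the 7 genes, all except MCL1. The others were all above that median, with 34 CG pairs at BCL2L11, 25 at BAX, 24 at BCL2, and 17 and 12 at BCL2L1. A low number of CG pairs is thus no trait of the family, and a link with the peaks was not tested.

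Compared with the rest of their lists, the members were of similar median fold, with a smaller share of the strongest peaks. The median fold at the loci ran from 8.43 to 12.2 in the 9 lists, against 9.96 to 12.5 in the whole lists. Between 3.45% and 8.51% of a list's locus peaks belonged to the 10% of its peaks with the highest fold. That share was below 10% in every list, on 1 to 4 peaks each. The share of locus peaks found in all 3 lists of their set was above that of the whole list in 8 of 9 lists. It ran from 35.9% against 26.5% in lacZ replicate 2 to 93.3% against 90.9% in lacZ replicate 3. In odd replicate 2 it was 51.9% against 55.4%. The recurrent regions are the same in the 3 lists of a set, so the 9 lists are not separate results. These differences were not tested. Summits in the gene spans themselves numbered 19 for lacZ, 42 for odd and 30 for even lists, and most of these fell in BCL2 and BCL2L1, the longest spans.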

How the data were processed

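Peak lists of 9 ChIRP-seq libraries were used. The submitters' processing notes name FastQC, Bowtie2 and hg19; no source used here gives the peak caller, its settings or its control. Peaks were called per library, since each deposited list numbers its own peaks. The deposited pileup was read as a signal, the fragment coverage at the summit. Whether it was scaled to depth is not given. The deposited fold was read as a ratio of pileup to a background set by the authors. Significance was deposited as −log10 of p and q-values, and was not used.

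Gene spans are rounded, so distances to a gene carry an error of that size. Exons and introns were not used. The expected number is the list's peaks on the chromosome times the window length, over the length of the 100 kb tiles with a summit in any list. limma 3.58.1 (R 4.3.3; eBayes with trend, all 9 lists, pseudocount 1, minimum mean 1) gave log2 differences and Benjamini-Hochberg adjusted p-values. The script was tested on simulated data. Regions merged peaks sharing at least 1 base on chromosomes 1 to 22 and X. Named were the 3 regions per locus with the highest mean percentile of fold among those found in all 3 lists of a set, and regions with at least 2 lists of each of 2 sets; a few others are named to describe them. The members and gene list were chosen with earlier results of these data known. Alternatives were flank, list length, fold, filter, pseudocount, trend, expected length, overlap, a replicate block and leaving out each library.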

Additional observations from a re-analysis of the deposited data

Results flagged for a closer look

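Odd and even probes differed from each other at 3 loci when both were set against their own chromosome density (limma, adjusted p under 0.05). The log2 difference of odd minus even was 1.84 at BCL2L1, 1.45 at MCL1 and −0.88 at BAK1. With a flank of 100 kb the calls at MCL1 (0.087, adjusted p = 0.846) and BAK1 (−0.17, adjusted p = 0.575) were lost, and at BAK1 the direction turned with a flank of 25 kb (0.27) and in lists of equal length (0.66). Over all windows 35.4% passed the same test.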

How the results depend on the processing

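The number of loci called stayed within 1.5 times with a replicate block, at 3, 4 and 3 for odd against lacZ, even against lacZ and odd against even, and the block changed no call at any locus; same-numbered lists of different sets did not deviate together (correlation over tiles −0.00797 to 0.0224, 9 pairs). It was 1 and 2 for odd and even against lacZ with a flank of 100 kb, 2 for even against lacZ in the 50% of each list with the highest fold, and 1 for odd against even with a flank of 25 kb or lists of equal length (26460 peaks). Leaving out 1 library gave 2 to 4, 2 to 4 and 3.

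BCL2L1 kept its even-lacZ and odd-even calls under all 18 alternatives, and BAX its odd-lacZ call under the 17 that could be run. Directions turned at an adjusted p over 0.05 with a flank of 100 kb for BAK1 odd-lacZ (0.091), MCL1 even-lacZ (0.18), BAX even-lacZ (−0.094) and BCL2L11 odd-even (0.095), with a flank of 25 kb for BAK1 even-lacZ (−0.40) and odd-even (0.27), and in the stronger 50% for BCL2 odd-lacZ (0.087) and BAK1 even-lacZ (−0.049). In lists of equal length they turned for odd-even at BCL2 (−1.13), BCL2L11 (0.16), BAK1 (0.66) and BCL2A1 (−0.69), and for BAK1 even-lacZ, which was then called (−1.62, adjusted p = 0.00136). BCL2L11 odd-even turned without odd replicate 1 (0.18), odd replicate 3 (0.021) or even replicate 1 (0.0099), in a range of −0.34 to 0.18 without 1 library. MCL1 could not be tested with a flank of 25 kb, in the stronger 50% or at equal length, nor BAX at equal length.

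Observed over expected was 1.27 (odd), 0.772 (even) and 1.45 (lacZ) with a flank of 25 kb. With 100 kb it was 1.35 (odd), 0.823 (even) and 1.09 (lacZ), and at equal length 0.868, 0.517 and 1.18. The lacZ set was thus the highest with a flank of 25 kb and at equal length, and odd with 100 kb. Without 1 library the ratio was 1.08 to 1.19, 0.831 to 0.865 and 1.16 to 1.34 for odd, even and lacZ. Candidate regions numbered 0 in the stronger 50% and at equal length and 1 where presence required coverage of at least 50% of a region; without 1 library there were 3 throughout. Odd-only regions were 51 with a flank of 100 kb, 15 in the stronger 50% and 7 at equal length; even-only 12 with a flank of 25 kb, 10 and 4; lacZ-only 7 and 8. Without 1 library they were 25 to 37, 22 to 25 and 13 to 21. By construction a wider flank holds more peaks and a shorter list fewer. Beyond that, the cause was not tested. Read depth is unknown, so a peak missing from a list may not have been detectable there.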
